A study of Mus musculus with 24 samples.

Results

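The 39 genes described here encode proteins of the lysosome, the acidic compartment in which microglia digest myelin, dead cells and pathogens. They were taken as a named list from a table of 39017 mouse gene identifiers. All 39 were found and all passed the low-count filter that left 16535 genes. By role they are 11 proteases, 9 glycosidases, 4 lipid and acyl hydrolases, 3 cofactors or precursors of hydrolases, 6 membrane proteins, 2 transcription factors and 4 parts of the proton pump.

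The libraries were made from microglial RNA of the spinal cord in mice with experimental autoimmune encephalomyelitis (EAE), a model of multiple sclerosis in which immune cells attack myelin. Each of 4 groups had 6 libraries: wildtype females, *Kdm6a* cKO (conditional knockout) females, wildtype males and *Kdm6a* cKO males. *Kdm6a* lies on the X chromosome and encodes a demethylase of histones. All 24 libraries carried the label EAE, so no healthy animals were compared, and the labels give no age or strain. The design text names Tmem119-Cre:RiboTag mice for females and males alike. *Tmem119* drives Cre in microglia and other *Tmem119*-expressing cells, and the RiboTag allele tags ribosomes in cells with Cre, so the RNA of those cells can be pulled down. The labels do not say whether each library came from a separate animal, so p-values measure the spread between libraries. Each library title also carries a number, here the title number, that most libraries share with others of their genotype. What it marks is not stated, and the main fit treats the libraries as independent. Replicates were numbered 1 to 6 within a group in the order of deposit.

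Lysosomal hydrolases are made as precursors, sorted from the Golgi and activated as the vacuolar proton pump lowers the pH. Membrane glycoproteins such as LAMP1 and LAMP2 line the compartment, and small cofactors hold lipids for the hydrolases. The transcription factors TFEB and TFE3 bind a short motif, the CLEAR element, in the promoters of many of these genes. In microglia, cathepsins such as cathepsin S also process antigen for presentation to T cells.

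Total counts ranged from 27110133 to 40554736 per library. *Kdm6a* was lower in cKO libraries by a log2 change of -0.85 in females (adjusted p = 0.0313) and -1.36 in males (adjusted p = 0.016). The 12 microglial markers summed to 6804 to 14337 CPM, counts scaled to a library's effective size, per library. The 8 oligodendrocyte markers summed to 2331 to 3685 CPM, and the 8 astrocyte markers to 576.8 to 912.2 CPM, so RNA of other spinal cord cells was present. *Tmem119* was lower in female cKO (-0.77, adjusted p = 9.07e-04) and averaged 347.3 CPM in male cKO against 346.1 CPM in male wildtype (adjusted p = 1). *P2ry12*, another microglial marker, showed 0.89 in females (adjusted p = 0.23) and 0.65 in males (adjusted p = 1). In bulk RNA, fewer cells of a type and less RNA per cell cannot be told apart. In 2 female wildtype libraries, replicates 2 and 3, the Y-linked *Ddx3y* had 18 and 40 counts, against 0 to 2 in all other females, and *Tchh*, a hair follicle gene, had 3904 and 7365. *Xist* had 16 counts in male cKO replicate 3 and 0 in all other males. The lowest quality weight from limma, 0.162, belonged to female wildtype replicate 5. These 4 libraries are called doubted below.

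Together the 39 lysosomal genes took 6.03% to 10.9% of the CPM of a library, and the 11 proteases alone took 4.01% to 7.90%. Wildtype females had a share of 8.40% ± 1.15 and cKO females 8.34% ± 1.45, while wildtype males had 8.72% ± 0.956 and cKO males 8.54% ± 1.54 (SD, n = 6 each). These means lay within the spread of single libraries.

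Levels of different genes were compared as CPM per kilobase of annotated exon. *Ctsd*, the aspartic protease cathepsin D (ENSMUSG00000007891, chromosome 7, 142375911 to 142388038 in mm10), had the highest level, 13864 ± 3142 CPM per kilobase (SD over 24 libraries). *Ctss*, the cysteine protease cathepsin S (ENSMUSG00000038642, chromosome 3, 95526786 to 95556403), came next at 4098 ± 915.4. *Psap*, whose product is cut into the saposins that help degrade sphingolipids (ENSMUSG00000004207, chromosome 10, 60277627 to 60302597), followed at 3483 ± 680.2. *Ctsz*, the carboxypeptidase cathepsin Z (ENSMUSG00000016256, chromosome 2, 174427493 to 174439039), stood at 2458 ± 538.9. *Ctsb*, the cysteine protease cathepsin B (ENSMUSG00000021939, chromosome 14, 63122462 to 63145923), stood at 1915 ± 339.5. These 5 were the highest members in each of the 4 groups. *Ctsd* exceeded *Ctss* in all 24 libraries without overlap, whereas the ranges of the other 37 neighbouring pairs in the order overlapped.

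The lower end of the order held membrane and regulatory proteins beside some hydrolases. The lysosomal calcium channel gene *Mcoln1* was lowest at 1.81 ± 0.264 CPM per kilobase. *Ctsk*, the cathepsin best known from osteoclasts, stood at 5.12 ± 2.34, and *Tfeb* at 14.2 ± 3.02. Among membrane proteins *Cd68*, a phagocyte glycoprotein, reached 1153 ± 239.3, and *Lamp1* reached 967.2 ± 149.7, against 34.4 ± 9.66 for *Lamp2*. Per kilobase of the longest transcript, *Lamp1* stood at 1161 and *Lamp2* at 91.2, so the size of this gap depends on the length used. *Ctsk* varied most between libraries of one group, with a within-group coefficient of variation of 46.2%, and *Scarb2*, a receptor that carries glucocerebrosidase to lysosomes, varied least at 9.18%.

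**Figure D1:**
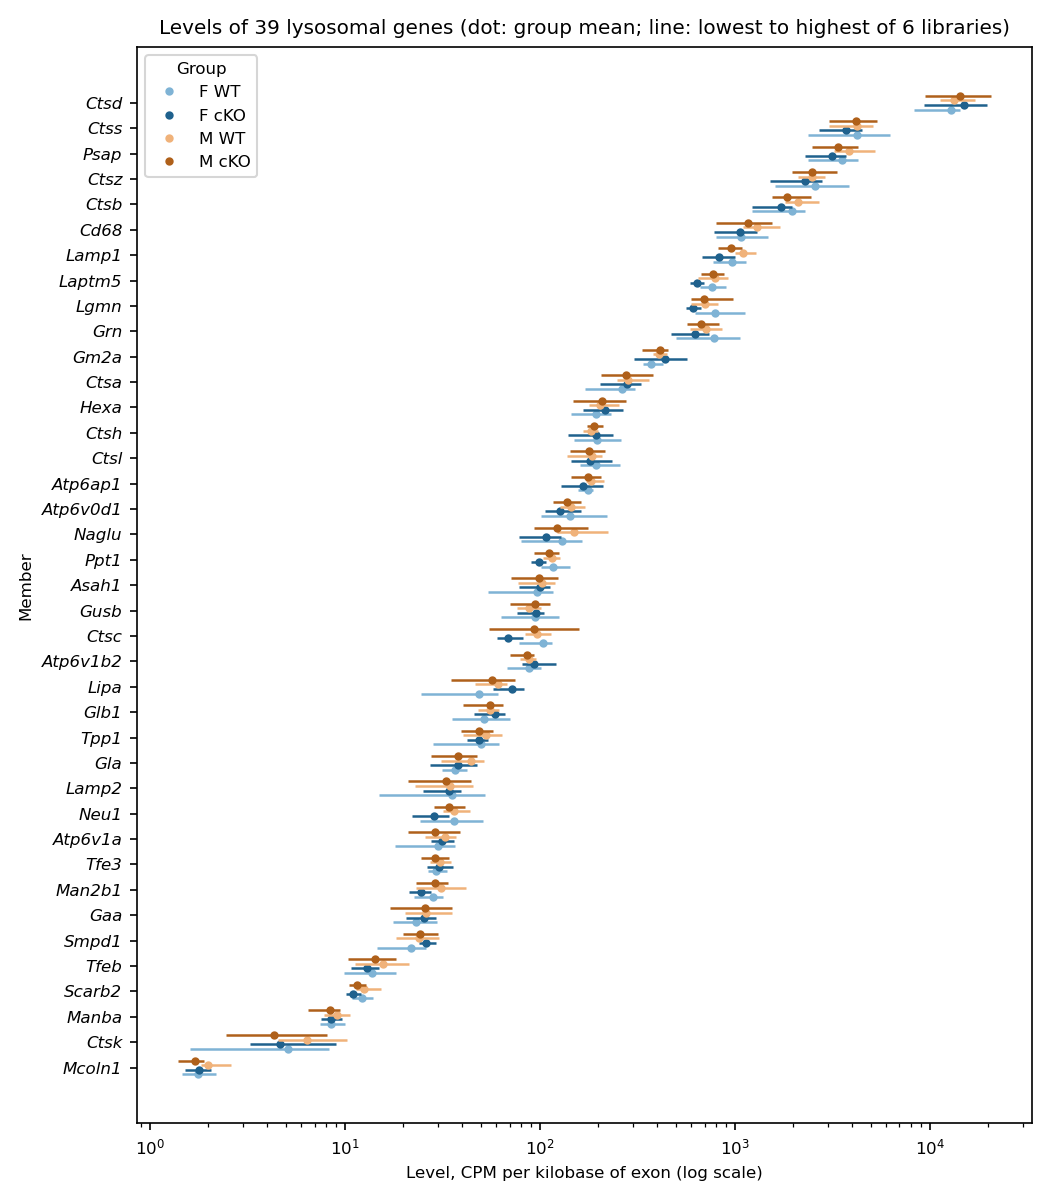
Levels of the 39 lysosomal genes in CPM per kilobase of exon on a log axis, with each group's mean as a dot and its lowest to highest of 6 libraries as a line. *Ctsd* stands alone at the top, and the 4 groups lie close together for most members.

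Promoter sequences were searched for the motif bound by TFEB and TFE3. RefSeq windows (GRCm38.p6) from 250 bases before to 50 after a start were given for 35 of the 39 genes, all but *Ctsb*, *Ctsh*, *Asah1* and *Atp6v1b2*. The core CACGTG, searched on both strands, which read the same, was in a window of 12 of the 35 genes (34.3%), against 8.09% of all genes with a window. The longer TCACGTGA, which contains the core, was in 6 of 35 (17.1%) against 1.12%, and the full CLEAR palindrome, which extends it by a base on each side, was in 0 of 35 against 0.37%. The 12 genes were *Ctsa*, *Ctsd*, *Ctsl*, *Lgmn*, *Gaa*, *Gla*, *Glb1*, *Naglu*, *Lamp1*, *Mcoln1*, *Atp6v0d1* and *Atp6v1a*. Neither *Ctsc* nor *Lipa*, the 2 members that passed in females as described below, had the core in its window. None of the 12 passed in either sex, where 7.74% of all genes passed in females and 0.187% in males. With only 2 calls among the members, no relation of the core to the cKO changes can be read from these counts. The 150 bases just before the start are printed for *Ctsc*, for *Lipa* and for 4 genes with the core. Each is given 5′ to 3′ on the strand of the gene, with CACGTG in capitals. They cover chr7:88277935-88278084 on the plus strand, chr19:34527475-34527624 on the minus strand, chr8:13159011-13159160 on the plus strand, chr8:3500369-3500518 on the plus strand, chr7:142387828-142387977 on the minus strand and chr9:114400928-114401077 on the plus strand.
Ctsc: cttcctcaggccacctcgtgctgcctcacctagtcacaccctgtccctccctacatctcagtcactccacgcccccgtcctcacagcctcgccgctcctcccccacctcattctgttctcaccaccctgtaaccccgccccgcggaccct
Lipa: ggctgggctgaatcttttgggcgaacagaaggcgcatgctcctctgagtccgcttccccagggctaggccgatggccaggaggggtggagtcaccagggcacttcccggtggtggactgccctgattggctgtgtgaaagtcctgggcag
Lamp1: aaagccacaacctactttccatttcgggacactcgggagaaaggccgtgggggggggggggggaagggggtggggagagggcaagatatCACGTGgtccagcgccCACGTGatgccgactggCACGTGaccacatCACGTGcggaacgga
Mcoln1: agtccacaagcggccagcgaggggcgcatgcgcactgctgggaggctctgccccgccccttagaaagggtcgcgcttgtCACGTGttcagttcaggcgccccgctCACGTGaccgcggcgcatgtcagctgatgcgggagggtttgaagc
Ctsd: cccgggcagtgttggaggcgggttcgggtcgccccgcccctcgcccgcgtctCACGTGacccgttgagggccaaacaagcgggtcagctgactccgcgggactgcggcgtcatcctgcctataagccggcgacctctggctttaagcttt
Glb1: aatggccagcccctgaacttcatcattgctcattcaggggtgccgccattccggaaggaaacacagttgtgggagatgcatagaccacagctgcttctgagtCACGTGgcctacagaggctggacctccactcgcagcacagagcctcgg
*Lamp1* carried 4 copies, *Mcoln1* 2 and *Glb1* 1 within these bases, and *Ctsd* 1 here and 1 further upstream. A match is a run of letters and shows neither binding nor its absence.

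In females, cKO and wildtype differed in 2 of the 39 lysosomal genes, 1 in each direction. *Ctsc* fell and *Lipa* rose, each by less than 2-fold, and 37 members did not pass. Of all genes tested, 7.74% passed in this comparison (3.32% higher and 4.41% lower), so the members' share of 5.13% was not above the background. Among the 37 members with a mean of at least 50 CPM, 2 passed (5.41%), against 10.7% of the 3267 genes at that level. Every adjusted p comes from the quasi-likelihood test of edgeR unless limma is named, with Benjamini-Hochberg adjustment over all genes.

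*Ctsc* encodes cathepsin C, or dipeptidyl peptidase I, which trims dipeptides from other proteins and activates serine proteases of leukocyte granules (ENSMUSG00000030560, chromosome 7, 88278085 to 88310888). Its lowest, median and highest levels were 454.7, 627.1 and 674.2 CPM in female wildtype and 351.1, 390.2 and 477.8 CPM in female cKO. In male wildtype they were 486.3, 552.7 and 664.8 CPM, and in male cKO 320.5, 530.3 and 919.7 CPM. The female cKO libraries lay below the female wildtype libraries except for an overlap of wildtype replicate 4 with cKO replicate 2, and the male groups overlapped widely. The log2 change in females was -0.60 (SE 0.170, 95% interval -0.94 to -0.25, adjusted p = 0.0279, 2-sided exact permutation p = 0.00433 on CPM). In males it was -0.05 (SE 0.169, 95% interval -0.40 to 0.30, adjusted p = 1). The difference between the sexes was -0.54 (95% interval -1.04 to -0.05, adjusted p = 0.617), so a difference in effect between females and males did not pass. The 919.7 CPM belonged to male cKO replicate 1.

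*Lipa* encodes lysosomal acid lipase, which frees cholesterol and fatty acids from ingested lipid (ENSMUSG00000024781, chromosome 19, 34492318 to 34527474). Its lowest, median and highest levels were 166.9, 354.6 and 412.6 CPM in female wildtype and 390.5, 516.0 and 560.5 CPM in female cKO. In male wildtype they were 315.7, 440.4 and 461.2 CPM, and in male cKO 237.4, 395.3 and 504.3 CPM. The female groups overlapped only between wildtype replicate 6 and cKO replicate 1, and female wildtype replicate 5 was the lowest of all 24 libraries. The log2 change in females was 0.56 (SE 0.177, 95% interval 0.20 to 0.93, adjusted p = 0.0481, 2-sided exact permutation p = 0.00433 on CPM). In males it was -0.09 (SE 0.176, 95% interval -0.45 to 0.27, adjusted p = 1). The difference between the sexes was 0.66 (95% interval 0.14 to 1.17, adjusted p = 0.469), the smallest adjusted p of any member in that comparison.

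Both calls were close to the threshold. Without the 4 doubted libraries *Ctsc* stood at -0.48 (adjusted p = 0.273) and *Lipa* at 0.33 (adjusted p = 0.41). The *Ctsc* call was lost on leaving out any 1 of replicates 3, 5 and 6 of female wildtype and replicates 1, 3, 4, 5 and 6 of female cKO, with log2 changes of -0.61 to -0.56 and adjusted p of 0.0502 to 0.0666. The *Lipa* call was lost on leaving out any 1 of 17 libraries (0.43 to 0.60, adjusted p = 0.0519 to 0.101). It was kept without replicate 1 of female cKO, female wildtype or male cKO, female cKO replicate 5, male cKO replicate 2, or replicate 6 of female wildtype or male wildtype (0.56 to 0.64). Within replicates 1 to 3 and within replicates 4 to 6, sets whose difference is described below, *Ctsc* stood at -0.55 and -0.64 (adjusted p = 0.145 and 0.0751). *Lipa* stood at 0.45 and 0.69 in the same sets (adjusted p = 0.377 and 0.177).

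Markers of infiltrating cells differed in the female comparison, not all in 1 direction. A score of monocyte-derived, neutrophil and T cell markers (mean log2 CPM, centred on all libraries) ran from -0.19 to 0.96 in female wildtype and from -0.57 to 0.18 in female cKO. Each marker weighs the same in this score, however low its level. With that score as a term, *Ctsc* stood at -0.37 (adjusted p = 0.495) and *Lipa* at 0.36 (adjusted p = 0.549). The 12 monocyte-derived markers summed to 394.3 to 842.1 CPM in female wildtype and 717.5 to 1194 CPM in female cKO. In that sum *Fn1* alone held a mean of 319.0 and 721.9 CPM. The defining marker *Ly6c2* was at 0.545 CPM in wildtype and 0.0219 CPM in cKO, and *Ccr2* at 1.02 and 0.420 CPM, and 7 of the 12 were under 1 CPM in female cKO against 2 in female wildtype. The 10 neutrophil markers had a median sum of 201.9 CPM in female wildtype and 225.9 CPM in female cKO, with 7 of the 10 under 1 CPM in each. The 10 border macrophage markers had a median sum of 64.5 CPM (at most 83.0) in female wildtype and 41.6 CPM (at most 49.6) in female cKO. The 10 T cell markers summed to 3.66 to 10.4 CPM in female wildtype and 3.02 to 9.41 CPM in female cKO. The 6 endothelial markers summed to 44.0 to 92.7 CPM in wildtype and 105.6 to 165.6 CPM in cKO, with *Flt1* at a mean of 55.6 and 132.2 CPM. The infiltrating score itself averaged 0.284 in female wildtype and -0.264 in female cKO. The fit with it therefore cannot tell cell mix and an effect of genotype on these markers apart. The part of these cells in the results was not tested.

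**Figure D2:**
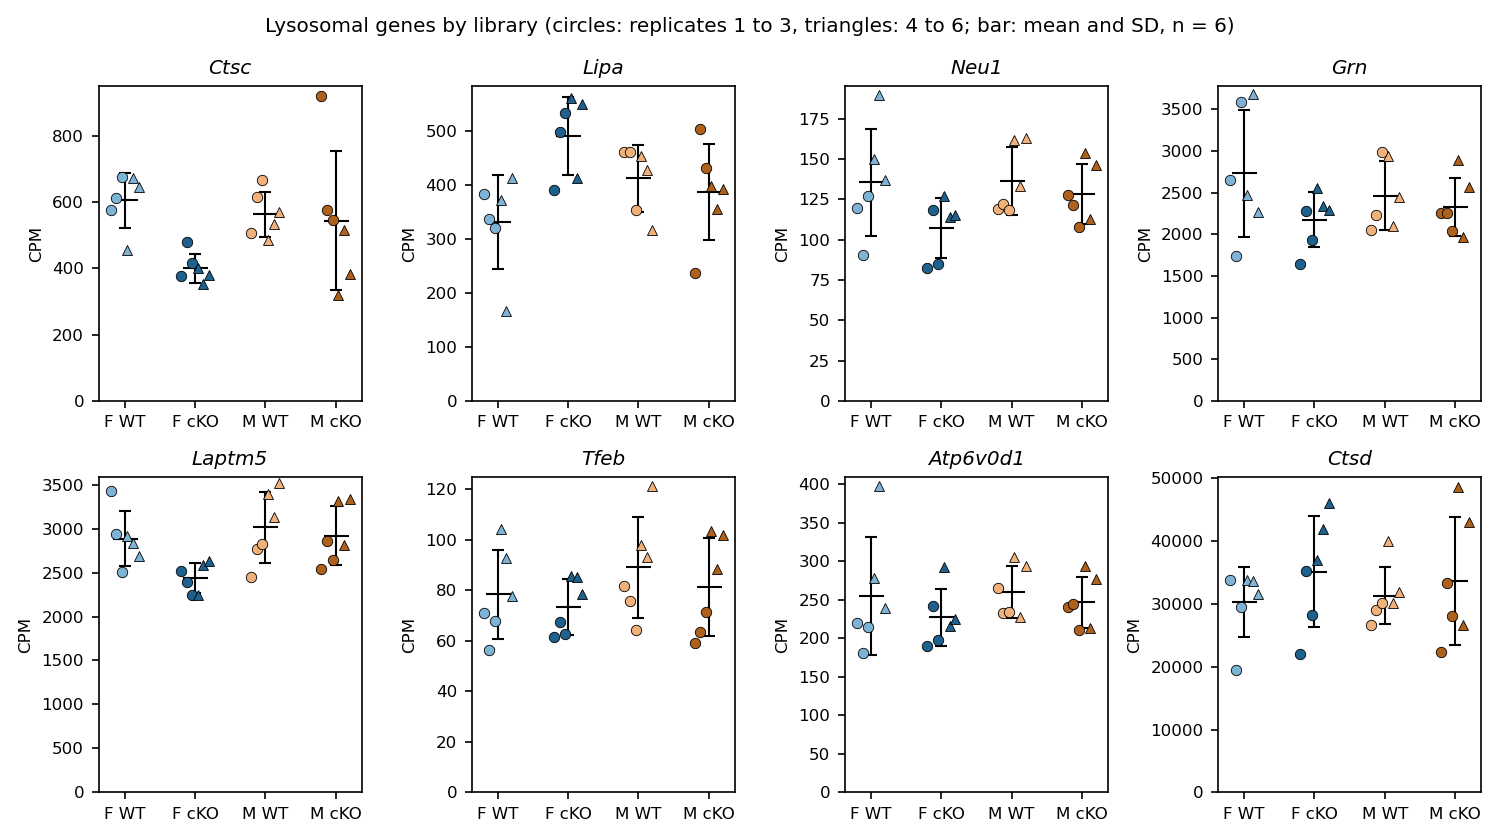
CPM of 8 lysosomal genes in each of the 24 libraries, by sex (F, M) and genotype (WT for wildtype), with the group mean and SD in black. Female cKO libraries are low for *Ctsc* and high for *Lipa*, with 1 library of each group overlapping. The female groups overlap in part for *Laptm5*, and the groups overlap widely for the remaining genes.

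No other protease passed in females. Of the 11 proteases, 9 had a negative log2 change, with a median of -0.12 against -0.02 over all genes tested, of which 52.9% were negative. Of all 39 members 24 were negative, with a median of -0.05. *Lgmn*, the asparaginyl endopeptidase legumain, stood at -0.37 (adjusted p = 0.119). The abundant cathepsins stood at 0.21 for *Ctsd* (adjusted p = 0.597), -0.18 for *Ctss* (adjusted p = 0.66), -0.17 for *Ctsz* (adjusted p = 0.691) and -0.19 for *Ctsb* (adjusted p = 0.553). *Ctsd* ran from 19503 to 33768 CPM in female wildtype, with a median of 32614, and from 21989 to 46042 CPM in female cKO, with a median of 36155. In males it ran from 26655 to 39965 CPM in wildtype (median 30156) and from 22298 to 48667 CPM in cKO (median 30709). *Ctss* ran from 3233 to 8535 CPM in female wildtype (median 5794) and from 3662 to 6078 CPM in female cKO (median 4982). The groups overlapped for both genes, and within female wildtype alone *Ctss* varied more than the 2 medians differed. *Ctsz* had medians of 3569 CPM in female wildtype (2332 to 5542) and 3536 in female cKO (2191 to 4046). *Ctsb* had medians of 12550 CPM in female wildtype (7455 to 13886) and 11073 in female cKO (7455 to 11891). The other proteases, *Ctsa*, *Ctsh*, *Ctsk*, *Ctsl* and *Tpp1*, lay between -0.12 and 0.09.

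The 9 glycosidases, which remove sugars from glycoproteins, glycolipids and glycogen, were spread around 0, with 5 positive and 4 negative log2 changes and a median of 0.01. The smallest p belonged to the sialidase gene *Neu1* (ENSMUSG00000007038, chromosome 17, 34931253 to 34935953). Its lowest, median and highest levels were 90.6, 132.0 and 190.0 CPM in female wildtype and 82.5, 114.9 and 127.4 CPM in female cKO, which overlapped. Females showed a log2 change of -0.34 (SE 0.149, adjusted p = 0.197), against a male value of -0.09 (SE 0.149, adjusted p = 1). *Naglu*, which acts on heparan sulfate, stood at -0.26 in females and -0.29 in males (adjusted p = 0.466 and 1). *Gaa*, the glycogen-degrading alpha-glucosidase, stood at 0.14 in females and *Glb1*, the beta-galactosidase, at 0.20 (adjusted p = 0.715 and 0.483). The remaining *Gla*, *Gusb*, *Hexa*, *Manba* and *Man2b1* lay between -0.19 and 0.16 in females.

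Among the 4 lipid and acyl hydrolases, *Lipa* passed. *Smpd1*, the acid sphingomyelinase, stood at 0.25 (adjusted p = 0.398), and *Asah1*, the acid ceramidase, at 0.05 (adjusted p = 0.912). *Ppt1*, which removes palmitate from proteins, stood at -0.24 (adjusted p = 0.124). Of the 3 cofactors and precursors, the smallest p belonged to *Grn*, which encodes progranulin (ENSMUSG00000034708, chromosome 11, 102430315 to 102437048). It ran from 1737 to 3677 CPM in female wildtype (median 2564) and from 1644 to 2551 CPM in female cKO (median 2288), with overlap. Females showed a log2 change of -0.33 (SE 0.157, adjusted p = 0.247), against a male value of -0.08 (SE 0.157, adjusted p = 1). *Psap* stood at -0.18 (adjusted p = 0.607), with a median of 9962 CPM in female wildtype (6555 to 11829) and 8779 in female cKO (6322 to 10198). *Gm2a*, the activator for ganglioside degradation, stood at 0.22 (adjusted p = 0.343).

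None of the 6 membrane proteins passed, and all lay within 0.25 of no change in both sexes. *Laptm5*, a transmembrane protein of haematopoietic cells (ENSMUSG00000028581, chromosome 4, 130913125 to 130936141), had the smallest p. It ran from 2503 to 3426 CPM in female wildtype (median 2875) and from 2242 to 2636 CPM in female cKO (median 2455), overlapping in part. Females showed a log2 change of -0.24 (SE 0.103, adjusted p = 0.177), against a male value of -0.05 (SE 0.103, adjusted p = 1). *Lamp1* stood at -0.22 in females and -0.21 in males (adjusted p = 0.298 and 1), and averaged over the sexes at -0.21 (adjusted p = 0.131). *Lamp2* stood at -0.05 with a wide 95% interval of -0.54 to 0.45 in females. *Cd68* stood at -0.01, *Scarb2* at -0.16 and *Mcoln1* at 0.02 in females.

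None of the 2 transcription factors and the 4 pump genes passed in either sex. *Tfeb* (ENSMUSG00000023990, chromosome 17, 47737030 to 47792419) ran from 56.3 to 104.1 CPM in female wildtype (median 74.4) and from 61.3 to 85.4 CPM in female cKO (median 73.0). The log2 change of *Tfeb* was -0.09 (SE 0.167, adjusted p = 0.834) in females, against a male value of -0.13 (SE 0.167, adjusted p = 1), and *Tfe3* stood at 0.05 and -0.09. *Atp6v0d1*, a subunit of the membrane sector of the pump (ENSMUSG00000013160, chromosome 8, 105524465 to 105566047), ran from 181.5 to 397.8 CPM in female wildtype (median 229.5). In female cKO it ran from 190.3 to 292.9 CPM (median 220.7), inside the wildtype range. Females showed a log2 change of -0.17 (SE 0.150, adjusted p = 0.614), against a male value of -0.08 (SE 0.150, adjusted p = 1). *Atp6v1a* and *Atp6v1b2*, subunits of the head that splits ATP, stood at 0.08 and 0.09 in females, and the accessory subunit *Atp6ap1* at -0.09. The 95% intervals of all 4 pump genes in females lay within a log2 change of 0.5 in either direction.

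Small changes were the common pattern in females. Of the 39 genes, 33 (84.6%) had a log2 change under 0.25 in size, against 59.1% of all genes tested. At a mean of at least 50 CPM the shares were 83.8% of the members and 68.4% of the genes. The 95% intervals lay within 0.5 in either direction for 27 members and within 1 for all 39. At an unadjusted p under 0.05 stood 7 members, *Ctsc*, *Lipa*, *Lgmn*, *Ppt1*, *Laptm5*, *Neu1* and *Grn*, against 19.2% of all genes. No member had groups that did not overlap in CPM, against 4.46% of all genes.

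In males, 0 of the 39 lysosomal genes passed, where 0.187% of all genes did. At an unadjusted p under 0.05 there were also 0 members, against 4.86% of all genes, and DESeq2 called 0 members. The log2 changes were negative for 33 members and positive for 6, where 47.8% of all genes were negative. The members varied together between libraries, with a median r of 0.36 over 741 pairs as described below. The directions of the 39 members are therefore not independent, here or in females. The log2 changes of the members had a median of -0.08 against 0.01 over all genes. The size was under 0.25 for 37 members (94.9%, against 77.8% of all genes). At a mean of at least 50 CPM the shares lay closer, 97.3% of the members and 92.1% of the genes. *Ctsk* had the lowest value and the widest interval, -0.56 (95% interval -1.30 to 0.17), with levels of 6.89 to 15.5 CPM in wildtype and 3.73 to 12.2 CPM in cKO. The 95% intervals lay within 0.5 in either direction for 34 members.

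Averaged over the sexes, 0 members passed, where 6.54% of all genes did, and *Ctsc* came closest at -0.32 (adjusted p = 0.122). Without male cKO replicate 1 it passed, at -0.43 (adjusted p = 0.0046). At an unadjusted p under 0.05 stood 5 members, *Ctsc*, *Naglu*, *Ppt1*, *Lamp1* and *Scarb2*, against 17.0% of all genes. The difference between the sexes in the cKO effect passed in 0 members, where 0.411% of all genes passed, and 2 members, *Ctsc* and *Lipa*, had an unadjusted p under 0.05, against 7.11% of all genes. DESeq2 called 0 members in each of these comparisons. Female against male libraries gave 0 members in wildtype, where 0.0363% of all genes passed, and 0 in cKO, where 1.98% did. At an unadjusted p under 0.05 0 members stood in wildtype, against 3.14% of all genes, and 2 in cKO, against 10.4% of all genes, *Ctsc* and *Laptm5* (-0.44 and -0.26, adjusted p = 0.268 and 0.293). The 4 X-linked members, *Gla*, *Lamp2*, *Tfe3* and *Atp6ap1*, lay between -0.26 and 0.03 in wildtype and between -0.08 and 0.09 in cKO.

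**Figure D3:**
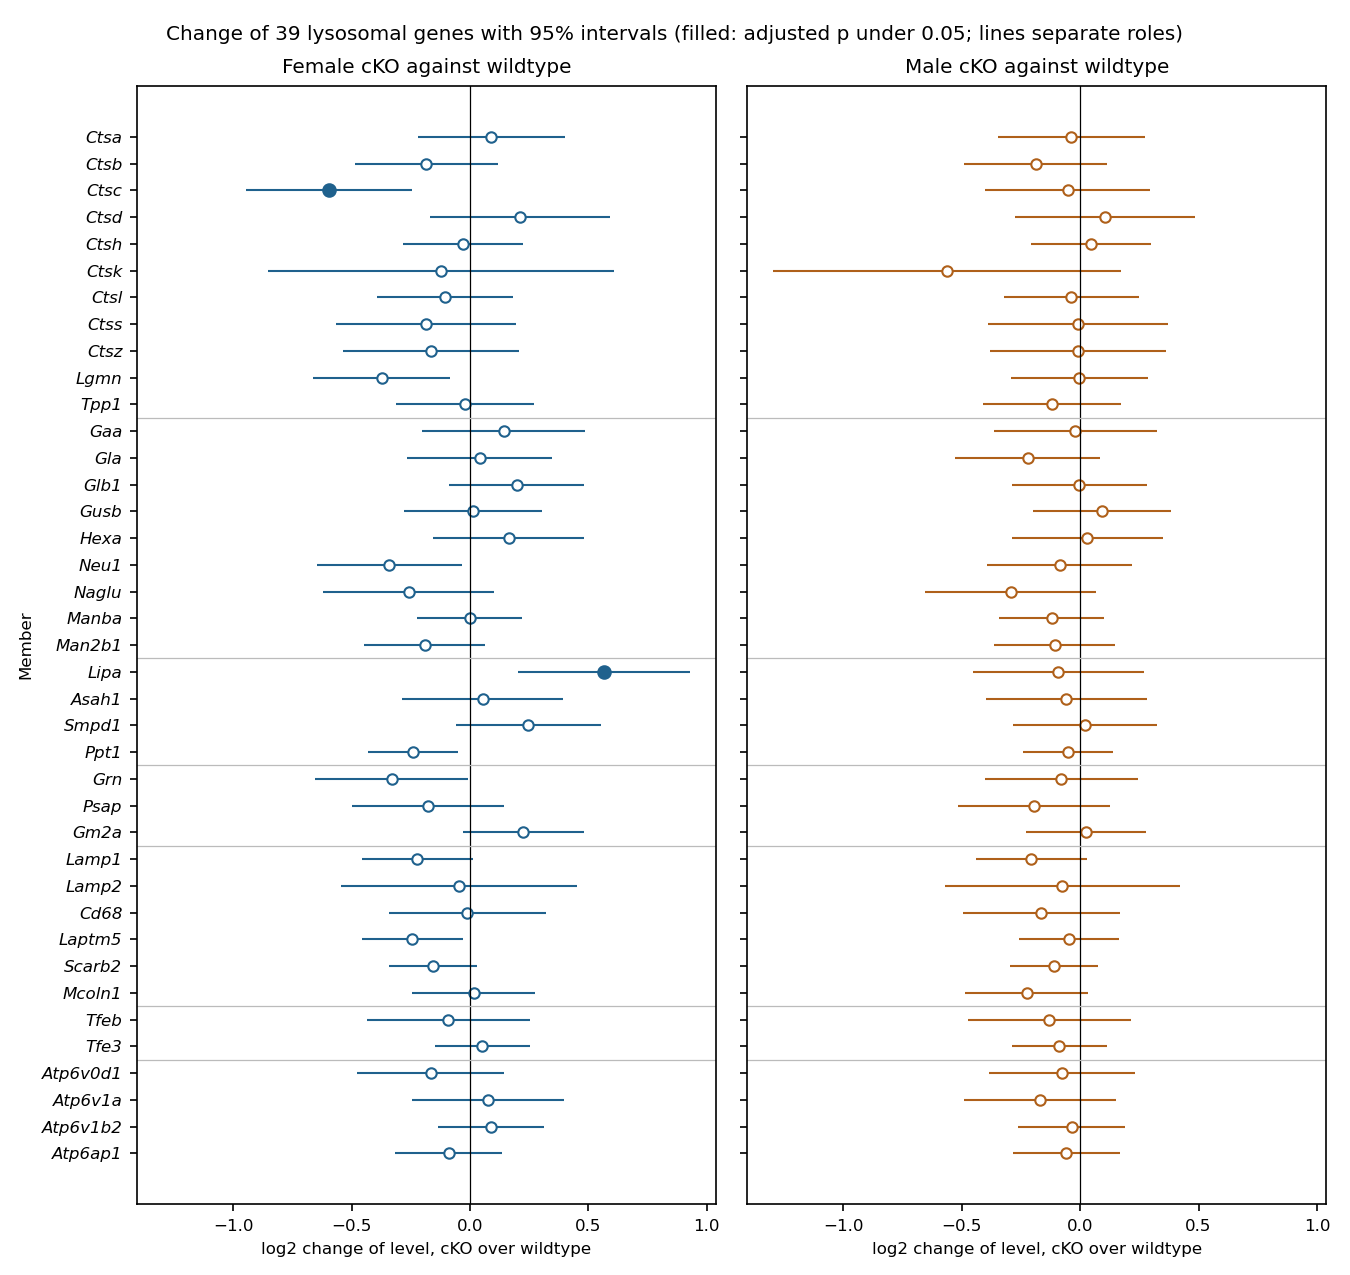
Log2 change of each lysosomal gene, cKO over wildtype, with its 95% interval in females (left) and males (right), and lines between the roles. Filled points mark the 2 genes with an adjusted p under 0.05, *Ctsc* and *Lipa* in females, and no point is filled in males.

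The largest variation of these genes lay between libraries of one group. Each library's log2 CPM was set against the mean of its group, and the members were correlated over the 24 libraries. The 741 pairs had a median r of 0.36, with 266 pairs above 0.5 and 67 below -0.5. These r share library, depth and normalization and are given as descriptions. *Asah1* and *Lamp2* moved most closely together (r = 0.97), and *Ctss* followed *Lamp2* (r = 0.94). *Ctsa*, the carboxypeptidase cathepsin A, moved with *Psap* (r = 0.96) and *Ctsd* (r = 0.94). The 2 sets ran against each other: *Lamp2* against *Tfeb* gave r = -0.84 and *Lamp2* against *Ctsz* gave r = -0.79. Role did not separate them, since pairs of the same role had a median r of 0.31 and pairs of different roles 0.36.

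The order of the members followed the base composition of their transcripts. GC content of the longest annotated transcript ran from 38.7% for *Lamp2* to 63.2% for *Tfeb*. Across the other 38 members it had r = -0.82 (Spearman's rho = -0.82) with the correlation to *Lamp2*. All 17 members with a GC content of 52% or more ran against *Lamp2*, from -0.84 to -0.09, while 8 of the 9 others with a GC content under 48% ran with it, the exception being *Scarb2* (-0.27).

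The same order separated replicates 1 to 3 from replicates 4 to 6 of every group. All 17 members with a GC content of 52% or more had a higher mean log2 CPM in replicates 4 to 6, and 9 of the 10 under 48% had a lower one. The difference was -0.72 for *Lamp2*, -0.45 for *Asah1* and -0.44 for *Ctss*, but 0.51 for *Ctsz* and 0.49 for *Tfeb*. Across all 39 members it had r = 0.82 with GC content (rho = 0.80), and *Ctsk*, at 48.9% GC, stood off that line with 0.49. *Lamp2* ran from 359.0 to 500.4 CPM in the 12 libraries of replicates 1 to 3 and from 143.1 to 340.7 CPM in the 12 of replicates 4 to 6, without overlap.

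The tilt was not limited to lysosomal genes. Over 16304 tested genes with a transcript, the slope of log2 CPM on GC content ran from -0.36 to -0.08 per 10 points of GC in the 12 libraries of replicates 1 to 3. It ran from -0.03 to 0.44 in the 12 libraries of replicates 4 to 6, with no overlap. By group the slopes averaged -0.01 ± 0.308 for wildtype females, -0.04 ± 0.166 for cKO females, 0.03 ± 0.260 for wildtype males and 0.02 ± 0.281 for cKO males (SD, n = 6 each), so the tilt lay across the genotypes. The log2 changes of the members had little relation to GC content, with r = -0.04 in females and 0.05 in males. The labels name no batch behind these sets, though most title numbers occur in only 1 of them. Female wildtype replicates 3 and 4 share a title number, with slopes of -0.36 and 0.25. Male cKO replicates 3 and 4 also share one, with slopes of -0.26 and 0.32. The cause of the tilt was not tested.

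With each library's slope as a term in the fit, a setting chosen after seeing the data, 5 members passed in females. *Ctsc* stood at -0.62 (SE 0.145, adjusted p = 0.00419) and *Lipa* at 0.57 (SE 0.172, adjusted p = 0.0288). *Smpd1* joined them at 0.29 (SE 0.0756, adjusted p = 0.011), *Neu1* at -0.30 (SE 0.0913, adjusted p = 0.0308) and *Ppt1* at -0.25 (SE 0.0775, adjusted p = 0.0351). The standard error of *Smpd1* was 0.148 without the term. The background rose as well, to 13.4% of all genes in females and 0.526% in males, and the male count of members stayed at 0. Averaged over the sexes, *Ctsc*, *Naglu* and *Smpd1* passed with this term (-0.36, -0.26 and 0.16, adjusted p = 0.0224, 0.0407 and 0.0494).

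**Figure D4:**
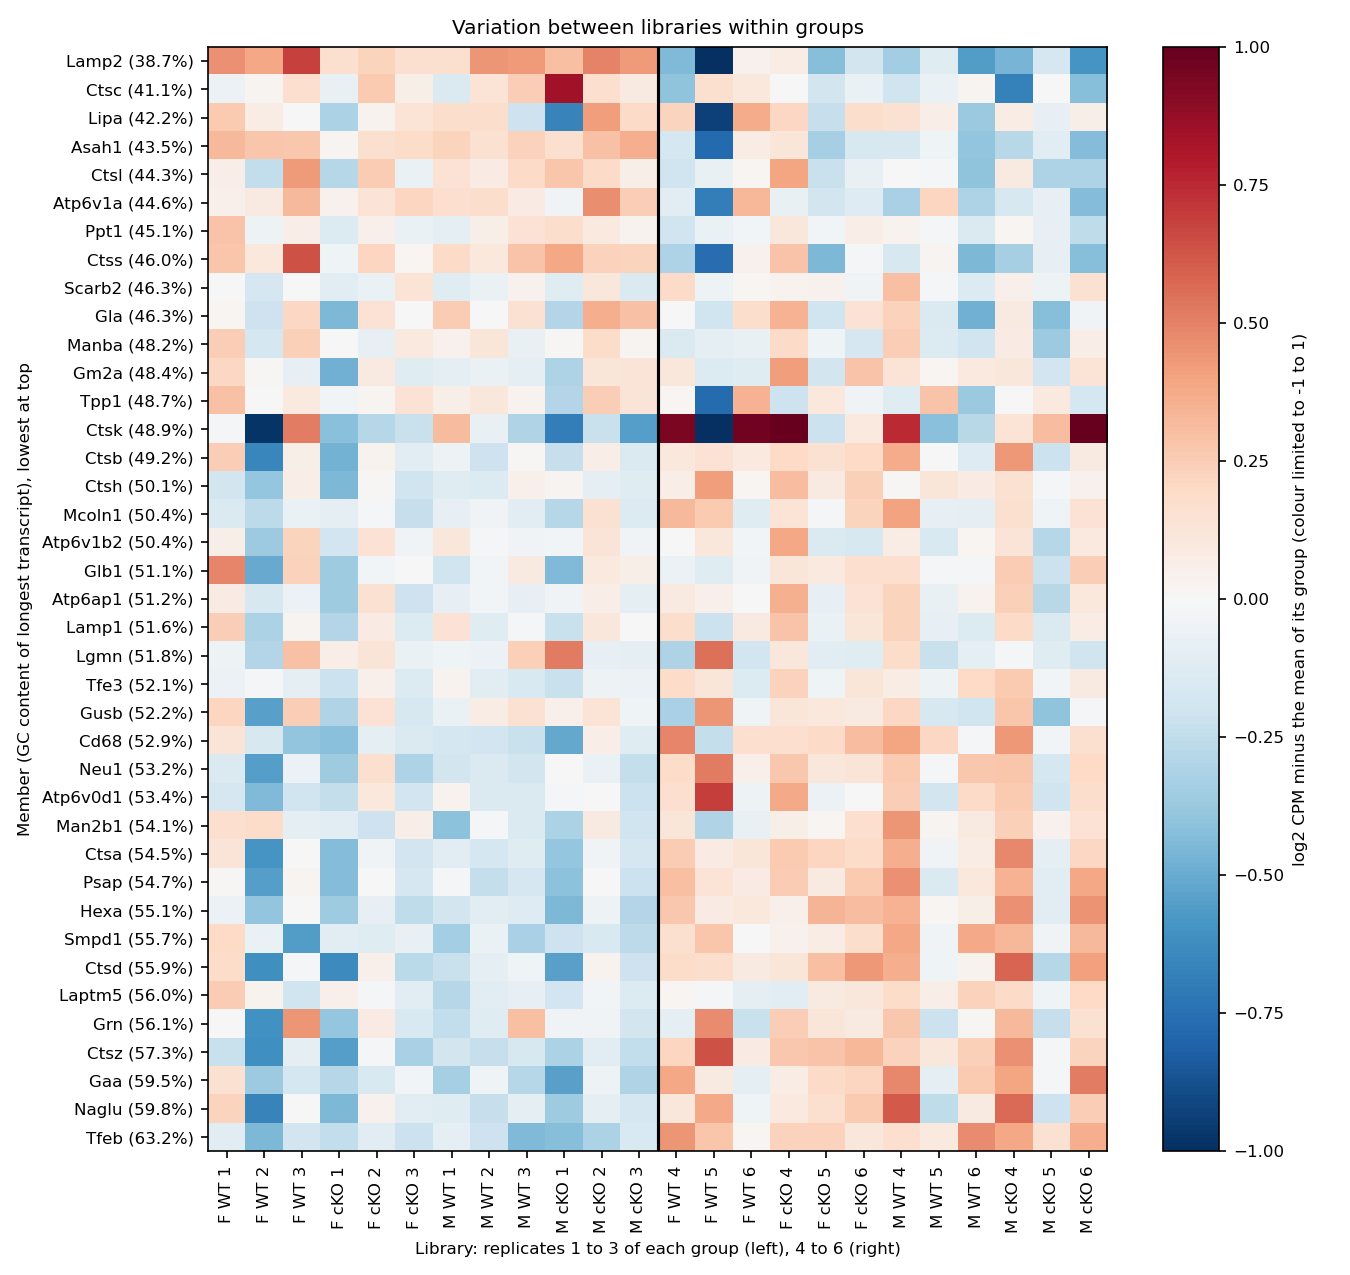
Log2 CPM of each member minus the mean of its group (colour, limited to -1 to 1) in the 24 libraries, replicates 1 to 3 left of the line and 4 to 6 right of it, with members ordered by GC content. The genes at the top, such as *Lamp2* and *Asah1*, are mostly above their group means on the left and below on the right, and those at the bottom, such as *Tfeb*, the opposite.

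**Figure D5:**
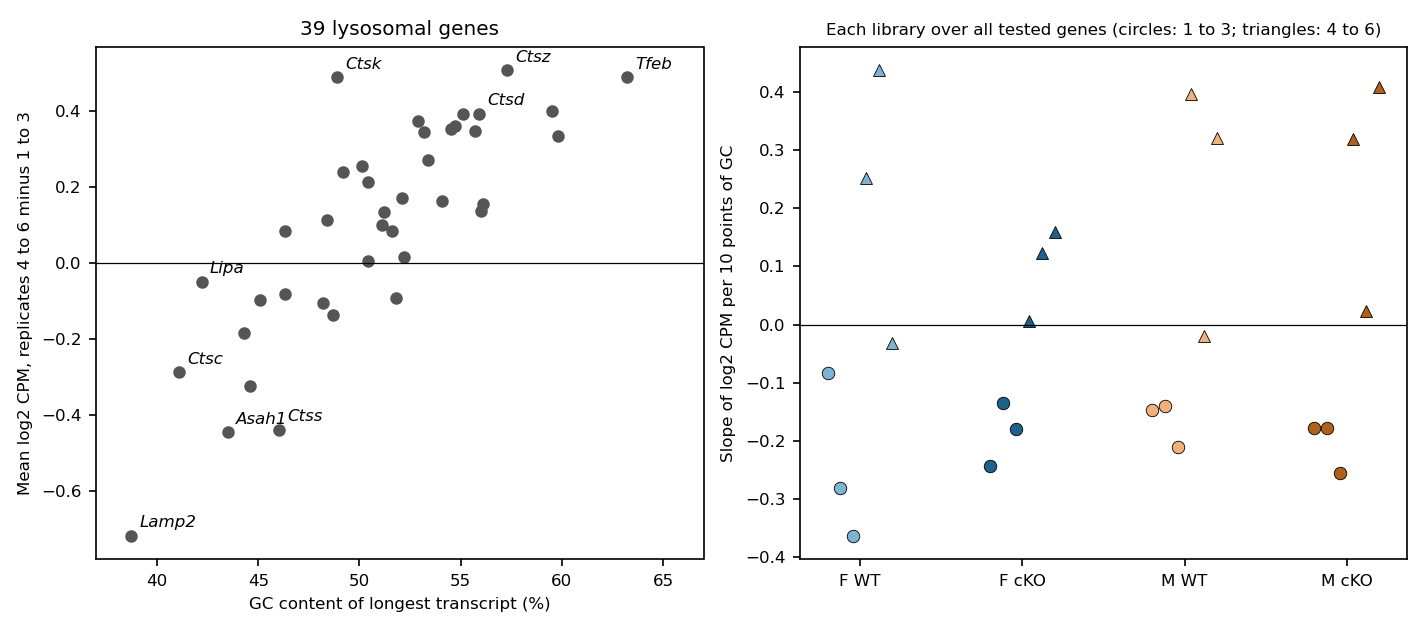
Left, the difference in mean log2 CPM between replicates 4 to 6 and 1 to 3 against transcript GC content for the 39 members. Right, each library's slope of log2 CPM per 10 points of GC over all tested genes, below 0 in all 12 libraries of replicates 1 to 3 and up to 0.44 in replicates 4 to 6.

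By the same within-group measure, the genes of the whole table most like *Ctsc* over the 24 libraries were *Lcp2* (r = 0.904), *Nampt* (0.893), *Bpnt1* (0.886), *Gbp3* (0.878) and *Srgn* (0.875). Those most like *Lipa*, a list added after its values were seen, were *Aplp2* (r = 0.965), *Cd300lb* (0.932), *Enc1* (0.930), *Zfp704* (0.923) and *Plxnc1* (0.920). Between *Ctsc* and *Lipa* themselves r was -0.38. These r too share library, depth and normalization and are given as descriptions. Those of *Lipa* include female wildtype replicate 5, a doubted library and the lowest of all 24 for this gene at 166.9 CPM.

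Outside the 39 genes, 8 lists of other lysosomal genes were counted in the same fit. In females the calls were 1 higher of 7 other proteases tested, 1 higher of 21 other glycosidases and sulfatases, and 3 lower of 13 lipid, phosphate and nucleic acid hydrolases. There were 0 calls among 29 other membrane proteins, 1 higher of 18 other pump subunits, 1 lower of 22 genes for delivery to lysosomes, 2 higher and 1 lower of 25 regulators, and 1 higher and 2 lower of 7 cathepsin inhibitors. In all that was 13 of 142 genes (9.15%), beside 7.74% of all genes tested. In males all 8 lists had 0 calls, where 0.187% of all genes passed.

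Several of these calls were larger than any among the 39 genes. *Pld4*, an endolysosomal exonuclease of single-stranded nucleic acids, fell from 501.7 ± 64.9 CPM to 121.6 ± 13.4 CPM in females (SD, n = 6 each; log2 change -2.04, adjusted p = 1.43e-10) without overlap. In males *Pld4* stood at 491.3 ± 102.8 and 372.6 ± 56.6 CPM (-0.40, adjusted p = 0.43), and the sexes differed in the effect by -1.65 (adjusted p = 3.2e-05). *Atp6v0d2*, the alternative form of the pump subunit encoded by *Atp6v0d1*, rose from 43.5 ± 21.6 to 112.5 ± 23.0 CPM in females (1.37, adjusted p = 0.00385), against 0.24 in males (adjusted p = 1). Without the 4 doubted libraries *Atp6v0d2* stood at 0.91 (adjusted p = 0.123), over 1.5 times smaller, and in replicates 4 to 6 alone at 0.87 (adjusted p = 0.111). In replicates 1 to 3 alone it stood higher than in all libraries, at 2.0 (adjusted p = 0.018).

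Among the cathepsin inhibitors *Cst3*, the secreted cystatin C, rose from 5185 ± 908.0 to 7797 ± 1305 CPM in females (0.59, adjusted p = 0.044). *Ctla2b* and *Ctla2a*, which resemble the propeptides of cysteine cathepsins, fell by 1.55 and 2.51 on the log2 scale (adjusted p = 1.34e-06 and 1.28e-04). As near-identical genes their counts may be split uncertainly. *Acp5*, an acid phosphatase, and *Smpdl3b*, a relative of sphingomyelinase, fell by 1.11 and 1.94 (adjusted p = 0.0054 and 8.06e-04), at group means of at most 14.6 CPM, and without the 4 doubted libraries *Smpdl3b* stood at -1.21 (adjusted p = 0.00255). *Sorl1*, a sorting receptor, fell by 0.90 (adjusted p = 0.00115).

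Of the regulators, *Bhlhe40*, a repressor that binds the same core motif, rose by 0.78 (adjusted p = 0.00104), from 173.5 ± 31.9 to 298.1 ± 41.8 CPM in females without overlap. *Rragd*, a GTPase of the nutrient-sensing complex on lysosomes, rose by 0.61 (adjusted p = 0.0374), and *Max*, the partner of MYC, fell by 0.42 (adjusted p = 0.023). *Cpq*, a carboxypeptidase, and *Man2b2*, a mannosidase, rose by 0.56 and 0.40 (adjusted p = 0.00823 and 0.0453). In females *Pld4* and *Ctla2b* passed under every alternative run and on leaving out any 1 library. Without the 4 doubted libraries *Pld4*, *Smpdl3b*, *Acp5*, *Sorl1*, *Ctla2a* and *Ctla2b* passed. *Bhlhe40* then stood at 0.60 (adjusted p = 0.0543), *Cpq* at 0.42 (adjusted p = 0.143), *Cst3* at 0.48 (adjusted p = 0.287), *Rragd* at 0.31 (adjusted p = 0.422), *Man2b2* at 0.31 (adjusted p = 0.355) and *Max* at -0.36 (adjusted p = 0.14). With the infiltrating-cell score as a term, *Pld4*, *Sorl1*, *Bhlhe40*, *Ctla2a* and *Ctla2b* passed. The others did not, with *Smpdl3b* at -1.03 (adjusted p = 0.174), *Max* at -0.19 (adjusted p = 0.656), *Cst3* at 0.33 (adjusted p = 0.634) and *Rragd* at 0.38 (adjusted p = 0.537) each over 1.5 times smaller. With title number as a random effect in limma, *Ctla2a* stood at -2.05 (adjusted p = 0.0599), *Max* at -0.43 (adjusted p = 0.0582), *Rragd* at 0.67 (adjusted p = 0.0729), *Cst3* at 0.61 (adjusted p = 0.0883) and *Man2b2* at 0.41 (adjusted p = 0.0839), and the other 8 passed.

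Calls of 4 of these genes were also lost on leaving out 1 library. *Max* lost its call without replicate 1, 3 or 5 of female cKO or replicate 3 or 5 of female wildtype (-0.40 to -0.36). *Rragd* lost it without any 1 female cKO library or replicate 2, 3 or 5 of female wildtype (0.47 to 0.63). *Cst3* lost it without replicate 1, 4, 5 or 6 of female cKO, 1, 3, 5 or 6 of female wildtype, or 2, 4 or 5 of male wildtype (0.51 to 0.62). *Man2b2* lost it without any 1 of 17 libraries (0.31 to 0.42). It kept it without replicate 1 or 2 of female cKO, 4 of female wildtype, 1 or 4 of male cKO, or 1 or 4 of male wildtype.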

How the data were processed

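RNA-seq was made from 24 libraries of spinal cord microglia. Per the labels' protocols, the Direct-zol RNA MiniPrep Plus kit gave the RNA, and libraries came from the KAPA Stranded RNA-Seq kit with mRNA enrichment. The tools in the submitters' processing notes are bcl2fastq 2.17, FastQC and Trimmomatic, and the build is mm10. For the aligner, counter, strand setting and annotation nothing is given in the sources used here, so reads of overlapping or near-identical genes cannot be assigned with certainty. The authors deposited 1 table of whole-number counts per Ensembl gene, with no normalization. Of 39017 identifiers, 37607 matched GENCODE vM21, the source of symbols, coordinates, lengths and GC content.

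Genes kept by filterByExpr (16535) were tested on counts with edgeR 4.0.16 (R 4.3.3) by the quasi-likelihood test with TMM factors and 1 mean per group over all 24 libraries. Genes with a Benjamini-Hochberg adjusted p under 0.05 were called. CPM used the TMM factors. Single values were compared with 2-sided exact permutation tests, whose smallest p with 6 against 6 is 0.00216. Intervals are 95% intervals from the fit. The procedure was tested on simulated counts.

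The members and lists were chosen with earlier results of these data known. Full values were given by a rule for members called, for the member with the smallest female p in each role without a call, and for the 5 highest per kilobase. Other lists gave up to 4 called genes. *Ctsk*, *Lamp2*, *Smpd1*, *Ppt1*, *Naglu* and other members given by more than their log2 change, and *Fn1*, *Flt1*, *Ly6c2* and *Ccr2*, were chosen after their values were seen. Alternatives were 24 fits leaving out 1 library and 15 others, including DESeq2 1.42.0 and limma 3.58.1. A fixed block of title number and the GC term were added after the data were seen. The GC term is each library's slope of log2 CPM (deviation from the gene's mean) on the GC content of the longest transcript.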

Additional observations from a re-analysis of the deposited data

Results flagged for a closer look

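Of 156 tests of a single library standing apart from the other 5 of its group, 11 flagged a lysosomal gene, and chance flags about 1 in 20 such groups. They mark libraries whose gap to the next exceeds Dixon's critical share of the group's range.

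In female wildtype, replicate 2 was the lowest for 3 genes: *Ctsa* at 809.6 CPM (others 1225 to 1453), *Ctsb* at 7455 CPM (others 12158 to 13886) and *Ctsd* at 19503 CPM (others 29512 to 33768). In male wildtype, replicate 4 was the highest for 5 genes. It held 16317 CPM of *Ctsb* (others 10924 to 12752), 596.7 CPM of *Naglu* (others 326.2 to 415.1) and 96.7 CPM of *Scarb2* (others 71.5 to 80.7). It also held 19.7 CPM of *Mcoln1* (others 13.8 to 14.5) and 648.2 CPM of *Atp6ap1* (others 524.4 to 566.6).

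In female cKO, replicate 4 was highest for *Ctsk* at 13.7 CPM (others 4.96 to 7.07). In male cKO, replicate 1 was highest for *Lgmn* at 2288 CPM (others 1392 to 1575), and replicate 5 was lowest for *Manba* at 45.0 CPM (others 58.2 to 65.7).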

How the results depend on the processing

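Of the 2 members called in females, 1 passed with no low-count filter, with the compared groups alone and with voom quality weights, each time *Ctsc*. With replicates 1 to 3 alone, replicates 4 to 6 alone, without the 4 doubted libraries, with the infiltrating-cell term and with a random effect of title number (correlation 0.216), 0 passed. With the GC term 5 passed. Leaving out 1 library gave 0 to 2. The count of 2 held with robust fitting, RLE factors, the replicate-set term, the neural-cell term and DESeq2. Averaged over the sexes, the count of 0 became 1 with the replicate-set term (*Ctsc*), in replicates 4 to 6 alone (*Ctsc*) and without the 4 doubted libraries (*Lamp1*, -0.29, adjusted p = 0.0403). It became 2 with voom weights (*Ctsc* and *Lamp1*) and 3 with the GC term, and ran from 0 to 1 on leaving out 1 library (1 without male cKO replicate 1, *Ctsc* at -0.43, adjusted p = 0.0046). The male and female-against-male counts stayed at 0 under every alternative run, and so did the count for the difference between the sexes except under a title-number block. The causes were not tested.

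Over all genes, the 1279 female calls became 629 with the infiltrating-cell term, 458 and 658 in replicates 1 to 3 and 4 to 6 alone, 803 with title number and 2215 with the GC term. The 31 male calls became 0 in either set alone, 2 with title number, 87 with the GC term, 90 with voom weights and 89 with DESeq2. No paired analysis was possible because, for cKO against wildtype, each title number lies within 1 genotype. Between the sexes, title number was added as a fixed block after the data were seen. In cKO every title number occurs in both sexes. In wildtype, males share numbers only with female replicates 3, 4 and 5. Under the block the other female wildtype libraries therefore add nothing to the comparison between the sexes. The labels do not say what the number marks. With this replicate block 1 member passed in the difference between the sexes, *Lipa* at 0.99 (adjusted p = 0.0478, edgeR's quasi-likelihood test), and 0 passed in females against males of either genotype. Over all genes the calls for the difference between the sexes went from 68 to 656 with the block. Of the female wildtype libraries that this block still compares with males, replicates 3 and 5 are doubted. Replicate 5 had the lowest quality weight, 0.162, and the lowest *Lipa* of all 24 libraries, 166.9 CPM. Effects of the block and of the libraries it leaves out cannot be told apart. Counting error alone, if each count were an independent read, was at most 10.5% for *Ctsk*, 5.54% for *Mcoln1* and 2.64% for *Manba*, the members with the fewest counts.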
